A study of Mus musculus with 24 samples.

Results

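The 8 genes described here encode complement proteins and their receptors: C1qa, C1qb, C1qc, C3, C3ar1, C5ar1, Cfb and Cfp. They were chosen by name, and all 8 are among the 12767 genes listed. Their messenger RNA was measured by sequencing in CD11c+ dendritic cells taken with magnetic beads from the mesenteric lymph nodes of mice carrying MC38 tumours, a mouse colon cancer line. There were 24 libraries, 3 in each of 8 groups. Mice were C57BL/6, either labelled Myd88 knockout or wild type; Myd88 is the adaptor protein that most Toll-like receptors signal through. In each genotype the 4 treatments were anti-PD-1 plus LGG (called the combination below), LGG alone, anti-PD-1 alone and IgG control antibody. LGG is a live lactobacillus given by mouth, and anti-PD-1 is an antibody that blocks an inhibitory receptor of T cells. Per the labels, all mice were female and 6 to 8 weeks old, received 1000000 MC38 cells under the skin of the flank, and entered treatment after 7 to 10 days at a mean tumour size of 100 mm3. Antibody was given at 200 µg per mouse, 2 injections a week, and treatment lasted 2 to 3 weeks. The labels record no antibody in the LGG group, which therefore differs from the IgG group in that respect as well. The labels do not say that the libraries of a group came from separate animals, so p-values measure the spread between libraries, which may be technical.

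Complement is a chain of blood and tissue proteins that tags microbes and dying cells. In the classical pathway C1q, built from the chains C1qa, C1qb and C1qc, binds antibody or cell debris and leads to cleavage of C3. In the alternative pathway factor B (Cfb) binds activated C3 to form an enzyme that cleaves more C3, and properdin (Cfp) stabilises that enzyme. C3ar1 and C5ar1 are receptors for the small fragments C3a and C5a that cleavage releases. Much of C3 and factor B in blood comes from the liver, whereas macrophages and dendritic cells are major sources of C1q, and myeloid cells make properdin.

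In mm10 (GRCm38), the C1q genes lie side by side on the minus strand of chromosome 4: C1qb at chr4:136880129-136886187, C1qc at chr4:136889804-136893065 and C1qa at chr4:136895917-136898803. The other genes also lie on minus strands: C3 at chr17:57203970-57228136, Cfb at chr17:34856374-34862518, Cfp at chrX:20925454-20931555, C3ar1 at chr6:122847138-122856161 and C5ar1 at chr7:16246743-16259540. Cfb shares 79.5% of its exonic bases with Gm20547, a read-through gene on the same strand that the table does not list. Reads from those bases can be dropped or split in counting, so the level of Cfb is uncertain, and its changes may mix both transcripts. Upstream sequences of 250 bases were in the RefSeq promoter table (GRCm38.p6) for 6 of the 8 genes, all but C1qa and Cfb. They are shown for C1qb and C1qc, neighbours whose levels moved together, for C3, whose response to LGG had opposite signs in the genotypes, and for C3ar1, which was higher in knockout cells in every treatment. Capitals mark matches, on either strand, to the motifs searched. The regions are chr4:136886201-136886450, chr4:136892915-136893164, chr17:57228137-57228386 and chr6:122856158-122856407. All are on the minus strand and end at the base before the RefSeq start. The RefSeq starts of C1qc, C3ar1 and C5ar1 lie inside the genes as placed above. Parts of those windows, only a few bases for C3ar1, are therefore within the annotated gene.
C1qb: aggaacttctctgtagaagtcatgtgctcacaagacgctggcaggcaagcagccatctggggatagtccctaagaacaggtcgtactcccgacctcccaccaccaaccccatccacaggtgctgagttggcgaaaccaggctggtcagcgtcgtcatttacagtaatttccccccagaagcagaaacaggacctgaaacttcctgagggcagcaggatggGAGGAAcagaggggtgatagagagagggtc
C1qc: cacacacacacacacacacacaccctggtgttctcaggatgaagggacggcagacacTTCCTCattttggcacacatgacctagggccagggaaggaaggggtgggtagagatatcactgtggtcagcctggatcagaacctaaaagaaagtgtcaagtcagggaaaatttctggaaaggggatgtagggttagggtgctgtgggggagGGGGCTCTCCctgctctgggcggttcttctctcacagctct
C3: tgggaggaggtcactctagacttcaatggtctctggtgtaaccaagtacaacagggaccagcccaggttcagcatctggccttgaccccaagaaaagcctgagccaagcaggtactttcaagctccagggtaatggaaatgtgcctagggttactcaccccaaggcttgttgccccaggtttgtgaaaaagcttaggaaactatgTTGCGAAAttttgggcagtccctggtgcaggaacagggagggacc
C3ar1: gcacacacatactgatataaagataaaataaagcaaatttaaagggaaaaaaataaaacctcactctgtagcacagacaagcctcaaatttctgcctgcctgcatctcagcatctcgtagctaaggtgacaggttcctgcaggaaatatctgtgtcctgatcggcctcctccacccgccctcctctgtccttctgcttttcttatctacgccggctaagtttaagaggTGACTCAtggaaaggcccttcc
The core of the PU.1 motif, GAGGAA, began 30 bases before the start of C1qb, and its reverse complement 193 bases before that of C1qc. This core was in 23.3% of 32851 promoters of the same length. An NF-kB motif began 41 bases before the RefSeq start of C1qc (7.25% of promoters), inside the gene as placed above. A C/EBP motif, TTGCNNAA, began 45 bases before that of C3 (9.56%), and an AP-1 motif, TGANTCA, 22 bases before that of C3ar1 (6.75%). Neither the interferon-stimulated element core, a pair of GAAA with 2 bases of any kind between them (2.98%), nor TTCNNNGAA, the GAS element (7.02%), was in any of the 6 windows, and C5ar1 and Cfp held no motif searched. No matches overlapped. These are matches of letters only.

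Reads assigned to listed genes ranged from 24531528 to 49272593 per library, and Cfb, the lowest of the 8 genes, had 0 to 122 reads in a library. Knockout anti-PD-1 replicates 2 and 3 and knockout LGG replicate 2 stood apart from the other libraries of their groups, and member results that rest on them are given with and without them. No rule for naming them is given here. Leaving them out can narrow the spread that the test uses. The share of all genes that passed in fits without them is not given here. Myd88 itself had 697.3 to 1837 normalised counts in knockout libraries, against 1723 to 2232 in wild-type libraries. The library labelled knockout anti-PD-1 replicate 3, at 1837, lay within the wild-type range, and the deleted part of the gene is not given in the sources used here. Transcripts of 4 Y-linked genes summed to 3060 to 4857 in knockout libraries, against 0.940 to 10.4 in wild-type libraries, although all mice are labelled female. Any difference between the genotypes therefore cannot be told apart from one between these sources of cells, and Cfp is an X-linked gene. All 9 dendritic cell markers were detected. Itgax, which encodes CD11c, had group means of 9828 to 52210, whereas Flt3, a receptor of conventional dendritic cells, had 8.09 to 640. Macrophage markers were abundant too, with Lyz2 at group means of 34185 to 317607 and Csf1r at 3620 to 20487.

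The C1q chains, C3 and Cfp were among the more abundant transcripts, and Cfb was near the bottom of the table. By mean normalised count over the 24 libraries, C3 stood at percentile 98.6 of all genes, Cfp at 97.6, C1qb at 97.3, C1qc at 96.7, C1qa at 92.4 and C3ar1 at 92.2. C5ar1 stood at percentile 53.5 and Cfb at 11.2. Per kilobase of exon, the median level over libraries was highest for C1qb at 11614 normalised counts per kb, followed by Cfp at 8901, C1qc at 5548, C3 at 4075 and C1qa at 4000. C3ar1 followed at 1288, C5ar1 at 242 and Cfb at 6.12 per kb. The span between the highest and the lowest library was 17.5-fold for C1qa, 13.5-fold for C1qb and 12.4-fold for C1qc, but only 1.91-fold for C3. It was 9.69-fold for Cfp, 7.86-fold for C3ar1 and 7.81-fold for C5ar1.

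**Figure D1:**
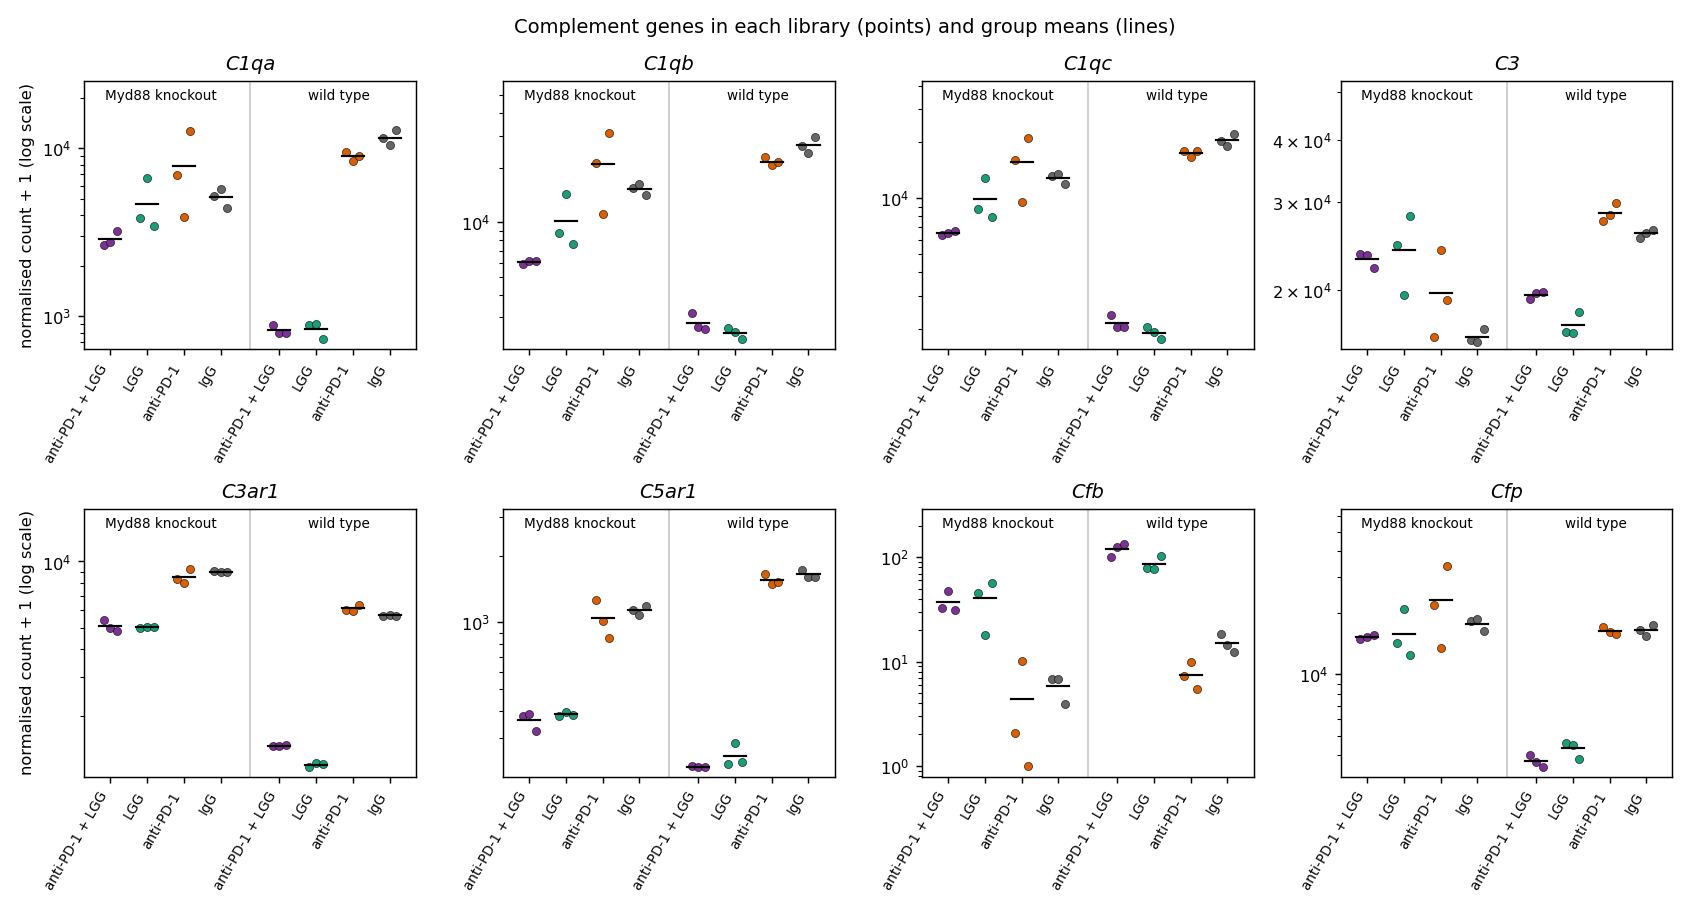
Normalised count + 1 (log axis) of each of the 8 genes in every library (points) with group means (lines), knockout groups left of wild-type groups. The wild-type combination and LGG groups are lowest for the C1q chains, C3ar1, C5ar1 and Cfp, and highest for Cfb; C3 varies least, from 15701 to 29971.

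LGG lowered all 3 C1q transcripts more than any other of the 8 genes in wild-type cells. C1qa had 885, 902 and 735 normalised counts in wild-type LGG libraries, against 11461, 10464 and 12834 in wild-type IgG libraries. C1qb had 2633, 2511 and 2286 with LGG, against 26278, 24009 and 29417 with IgG. C1qc had 2033, 1926 and 1763 with LGG, against 20321, 18968 and 21924 with IgG. Every LGG library lay far below every IgG library for each chain. The mean fell 13.8-fold for C1qa (log2 fold change -3.78 ± 0.28 SE; limma, adjusted p = 6.73e-10). For C1qb it fell 10.7-fold (-3.42 ± 0.25; limma, adjusted p = 5.23e-10) and for C1qc 10.7-fold (-3.42 ± 0.20; limma, adjusted p = 1.39e-11). Over the 8 complement genes, 8 passed the test in this comparison, 7 lower and 1 higher, where 55.5% of the 12749 genes tested passed, 28.2% lower and 27.4% higher. The median log2 fold change was -2.49 over the 8 genes and -0.0032 over all genes tested.

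With the combination the C1q chains were also low in wild-type cells. C1qa had 892, 796 and 797 in wild-type combination libraries, C1qb 3159, 2672 and 2595, and C1qc 2361, 2041 and 2047. Against the IgG libraries just given, these are log2 fold changes of -3.80 ± 0.28 for C1qa, -3.24 ± 0.25 for C1qb and -3.25 ± 0.20 for C1qc (limma, adjusted p at most 1.19e-09). Again 8 of the 8 genes passed, 7 lower and 1 higher, beside 55% of all genes. Both comparisons share the IgG libraries. Against LGG alone, the combination differed by -0.02 ± 0.28, 0.18 ± 0.25 and 0.17 ± 0.20 on the log2 scale for C1qa, C1qb and C1qc, none past the test.

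Libraries labelled knockout lost much less C1q with LGG. C1qa had 3840, 6644 and 3438 in knockout LGG libraries, against 5238, 5707 and 4420 in knockout IgG libraries, and the groups overlapped. C1qb had 8801, 14263 and 7611 with LGG, against 15514, 16338 and 14168 with IgG. C1qc had 8721, 12858 and 7964 with LGG, against 13079, 13521 and 11917 with IgG. Replicate 2, which stood apart, was the highest LGG library for each chain and the only LGG library above any IgG library. With it the differences of -0.20 ± 0.28, -0.64 ± 0.25 and -0.41 ± 0.20 (log2) did not pass (limma, adjusted p = 0.659, 0.0597 and 0.123). Without the 3 libraries that stand apart they were -0.49, -0.90 and -0.62, and all passed (limma, adjusted p = 0.000926, 5.32e-08 and 7.36e-07). In this comparison 4 of the 8 genes passed, 2 higher and 2 lower, beside 32.2% of all genes. Without those libraries 8 passed, 2 higher and 6 lower, and the share of all genes in that fit is not given here.

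The combination did lower C1q in knockout cells. C1qa had 2655, 2758 and 3219 in knockout combination libraries, C1qb 5935, 6105 and 6174, and C1qc 6353, 6509 and 6638. All lay below the knockout IgG libraries. C1qa fell by 0.83 ± 0.28 on the log2 scale (limma, adjusted p = 0.0289), C1qb by 1.33 ± 0.25 (0.000328) and C1qc by 0.98 ± 0.20 (0.000637). The call for C1qa was lost without knockout IgG replicate 1 or 2 or knockout combination replicate 1 or 2, with adjusted p (limma) from 0.0752 to 0.0971. In all 7 of the 8 genes passed, 5 lower and 2 higher, beside 33.5% of all genes. Against LGG alone, 0 of the 8 genes passed in knockout cells (limma; 0.275% of all genes), 3 had an unadjusted p below 0.05, and edgeR and DESeq2 each called 0; without the libraries that stand apart, 3 passed.

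The order of the genotypes turned round with LGG. Under IgG, knockout libraries held less C1q than wild-type libraries, by -1.18 ± 0.28 for C1qa (limma, adjusted p = 0.00238), -0.79 ± 0.25 for C1qb (0.0172) and -0.67 ± 0.20 for C1qc (0.011). The C1qb call was lost without knockout IgG replicate 3 (limma, adjusted p = 0.0548) or wild-type IgG replicate 3 (0.0643). Under LGG they held more, by 2.41 ± 0.28, 1.99 ± 0.25 and 2.34 ± 0.20 (limma, adjusted p at most 1.15e-06), and by 2.12, 1.73 and 2.13 without the 3 libraries that stand apart. Under the combination they held more as well, by 1.79 ± 0.28, 1.12 ± 0.25 and 1.60 ± 0.20 (limma, adjusted p at most 0.000765). Of the 8 genes, 6 passed under IgG (1 higher, 5 lower; 39% of all genes), 7 under LGG (all higher; 55.2%, and 28.2% higher) and 7 under the combination (6 higher, 1 lower; 58.1%). The test of the difference between genotypes in the LGG effect passed for the 3 chains, at 3.59 ± 0.40, 2.78 ± 0.35 and 3.01 ± 0.28, knockout minus wild type (limma, adjusted p at most 3.98e-06), and at 3.30, 2.52 and 2.80 without the 3 libraries that stand apart. In that test 7 of the 8 genes passed, all positive, beside 34.9% of all genes, and 19.5% with a positive sign. For the effect of the combination the differences were 2.97 ± 0.40, 1.91 ± 0.35 and 2.27 ± 0.28, and again 7 genes passed, all positive, beside 33.8% of all genes and 19.8% with a positive sign.

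**Figure D2:**
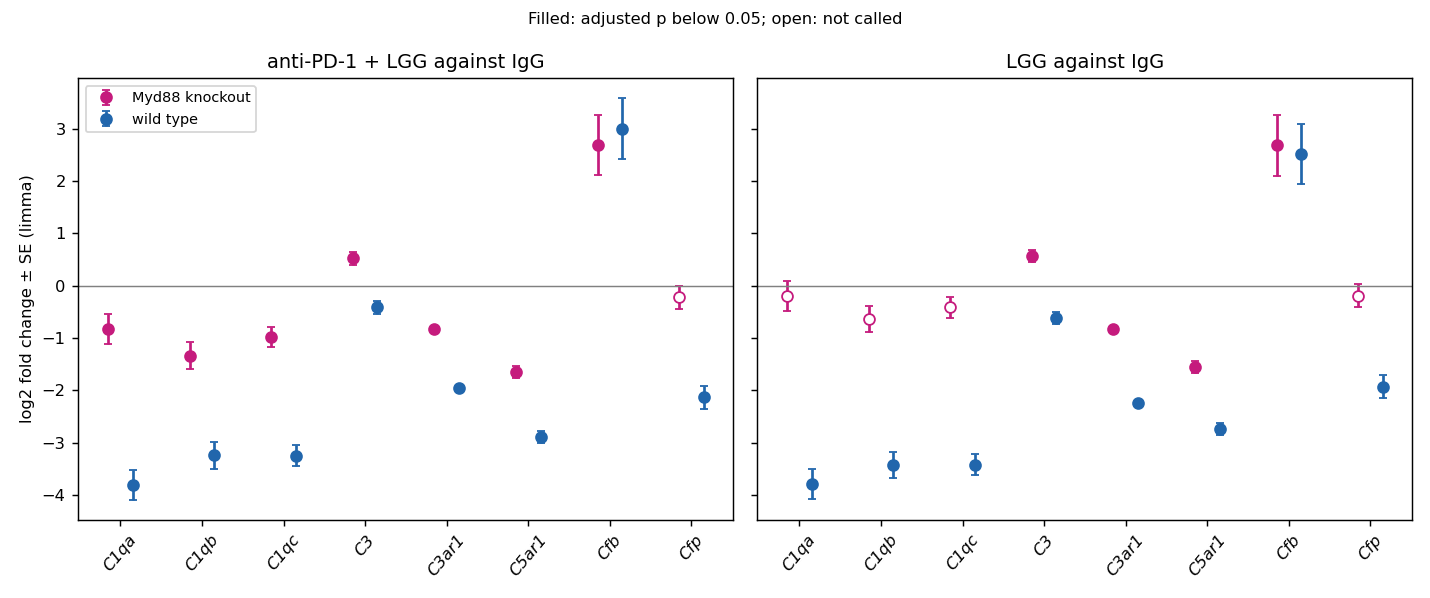
Log2 fold change with its standard error for the combination against IgG (left) and LGG against IgG (right), knockout left of wild type for each gene; filled points passed at an adjusted p below 0.05. The effects on C1q chains, C3ar1, C5ar1 and Cfp are closer to 0 in knockout cells, C3 lies on opposite sides of 0, and Cfb, at 2.69 and 2.68 in knockout cells, rises in both genotypes.

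The proportions of the chains also differed. C1qb over C1qc, as a ratio of normalised counts, was 0.930 to 0.938 in knockout combination libraries and 0.956 to 1.11 in knockout LGG libraries, against 1.19 to 1.21 in knockout IgG libraries. In wild-type cells it was 1.27 to 1.34 with the combination and 1.29 to 1.30 with LGG, against 1.27 to 1.34 with IgG. The ratio was thus lower with either LGG treatment in knockout libraries, with no overlap, and within the IgG range in wild-type libraries. C1qa over C1qc ran the other way: it was 0.378 to 0.390 and 0.417 to 0.468 in wild-type combination and LGG libraries, against 0.552 to 0.585 with IgG. In knockout cells it was 0.418 to 0.485 with the combination and 0.432 to 0.517 with LGG, against 0.371 to 0.422 with IgG. The ratios are given as a description, with no test.

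**Figure D3:**
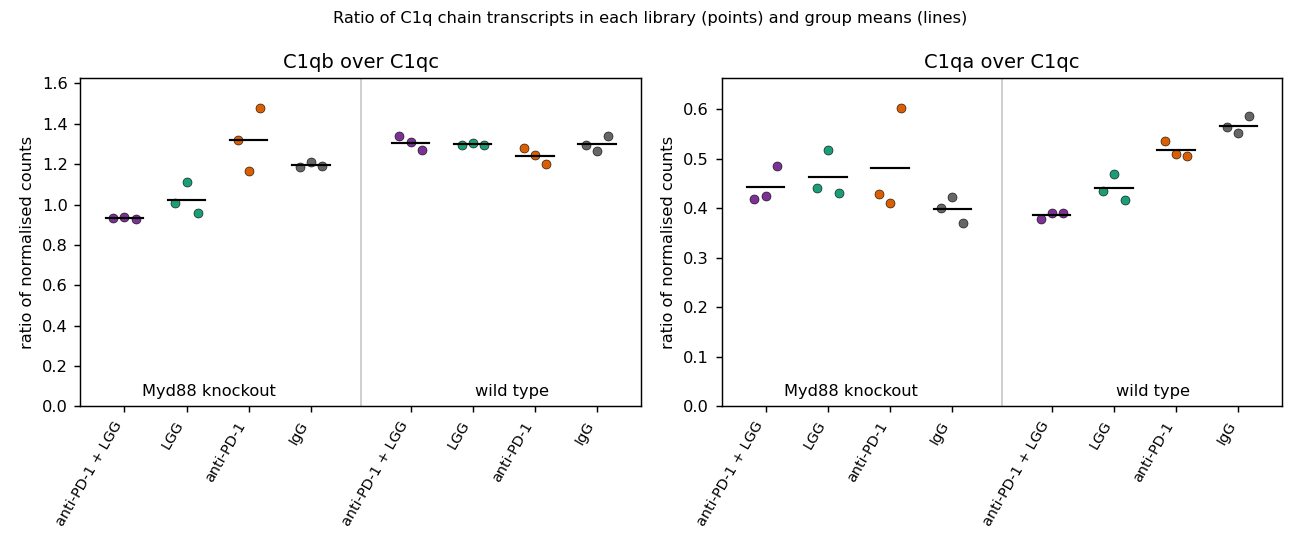
Ratio of normalised counts of C1qb (left) and C1qa (right) to C1qc in every library (points), with group means (lines) and axes from 0, knockout groups left of wild-type groups. C1qb over C1qc is lowest in the knockout combination libraries, 0.930 to 0.938, and C1qa over C1qc is highest in knockout anti-PD-1 replicate 3, at 0.602.

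C3, the central protein of the cascade, fell with LGG in wild-type cells and rose with it in knockout cells. In wild-type cells it had 16456, 16423 and 18037 with LGG, against 25485, 26074 and 26445 with IgG. In knockout cells it had 24593, 19545 and 28161 with LGG, against 15900, 15701 and 16663 with IgG. In neither genotype did the groups overlap, and their order was opposite. The change was -0.62 ± 0.12 in wild-type cells (limma, adjusted p = 0.000227) and 0.57 ± 0.12 in knockout cells (0.00114; 0.71 without the 3 libraries that stand apart). The difference between the genotypes was 1.18 ± 0.17 (limma, adjusted p = 1.91e-05), or 1.33 without those libraries. With the combination, C3 had 23646, 23482 and 22099 in knockout cells and 19147, 19738 and 19811 in wild-type cells. These are changes against IgG of 0.52 ± 0.12 (limma, adjusted p = 0.00236) in knockout cells and -0.41 ± 0.12 (0.00732) in wild-type cells. The difference between them was 0.93 ± 0.17 (limma, adjusted p = 0.000261). Knockout cells had less C3 than wild-type cells under IgG (-0.69 ± 0.12; limma, adjusted p = 0.000135) and more under LGG (0.49 ± 0.12; 0.00187), while under the combination the difference of 0.24 ± 0.12 did not pass (0.102). The libraries of that last comparison did not overlap, and the same difference passed with only the libraries compared in the fit (limma, adjusted p = 6.73e-05) or without the 3 libraries that stand apart (0.000518). Under LGG the difference was 0.63 without those 3 libraries.

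Cfb, the protease of the alternative pathway, was the only one of the 8 genes that LGG raised in both genotypes. It had 45.0, 17.2 and 56.3 normalised counts in knockout LGG libraries, against 5.87, 5.84 and 2.88 in knockout IgG libraries. In wild-type cells it had 78.0, 76.1 and 101.5 with LGG, against 17.4, 13.6 and 11.3 with IgG. With the combination it had 31.5, 46.6 and 30.4 in knockout cells and 98.7, 124.7 and 133.8 in wild-type cells. Each library with LGG was above each IgG library of its genotype, and the lowest knockout LGG library was replicate 2, at 14 reads. Against IgG, LGG raised Cfb by 2.68 ± 0.57 in knockout cells (limma, adjusted p = 0.00117; 3.18 without the 3 libraries that stand apart) and 2.52 ± 0.57 in wild-type cells (0.000918). The combination raised it by 2.69 ± 0.57 (limma, adjusted p = 0.00112) and 3.0 ± 0.57 (0.000174). These are changes of log2(value + 1), which understates those of so low a gene, and knockout IgG libraries held only 4 to 9 reads. The test of the difference between genotypes gave 0.16 ± 0.81 for LGG (limma, adjusted p = 0.906; 0.66 without the 3 libraries that stand apart, adjusted p = 0.193) and -0.31 ± 0.81 for the combination (0.815), with standard errors too large to place the sign. At matched treatment Cfb was lower in knockout cells in all comparisons, and past the limma test as reported only under the combination (-1.71 ± 0.57; limma, adjusted p = 0.0158); under LGG it was -1.23 ± 0.57 (0.0765) and under IgG -1.39 ± 0.57 (0.0626). On recovered reads both passed, with adjusted p of 0.0172 (edgeR) and 0.00421 (DESeq2) under LGG and 0.0416 (edgeR) and 0.00795 (DESeq2) under IgG. Without the 3 libraries that stand apart, Cfb passed as lower in knockout cells under LGG (-0.74, limma, adjusted p = 0.0466) and IgG (-1.39, limma, adjusted p = 0.000277). Under anti-PD-1 the difference was then -1.82, but only replicate 1 of the knockout group was left, with Cfb at 1.06 normalised counts. With all libraries the anti-PD-1 groups of the genotypes overlapped in Cfb.

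Cfp, which stabilises the enzyme that factor B forms, fell with LGG in wild-type cells, and the genotypes differed in this effect. It had 4601, 4511 and 3849 in wild-type LGG libraries, against 16433, 15354 and 17355 in wild-type IgG libraries. In knockout cells it had 14191, 20767 and 12488 with LGG, against 18177, 18620 and 16303 with IgG. The wild-type groups were far apart and the knockout groups overlapped. The change was -0.19 ± 0.22 in knockout cells (limma, adjusted p = 0.556) and -1.93 ± 0.22 in wild-type cells (2.98e-07), and they differed by 1.73 ± 0.31 (0.000192; 1.52 without the 3 libraries that stand apart). Without the 3 libraries that stand apart the knockout change was -0.41 and passed (limma, adjusted p = 0.000187). With the combination Cfp had 14841, 15159 and 15550 in knockout cells and 4017, 3694 and 3510 in wild-type cells. The change against IgG was -0.22 ± 0.22 in knockout cells (limma, adjusted p = 0.488) and -2.13 ± 0.22 in wild-type cells (7.35e-08). The knockout change passed with only the libraries compared in the fit (limma, adjusted p = 0.00527) or without the 3 libraries that stand apart (0.0129). Under IgG the genotypes differed by 0.11 ± 0.22 in Cfp (limma, adjusted p = 0.72), with overlapping libraries.

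The C3a receptor gene, C3ar1, was higher in knockout than in wild-type cells in every treatment, and LGG lowered it in both. It had 5017, 5067 and 5024 in knockout LGG libraries, against 9054, 8948 and 8915 in knockout IgG libraries. In wild-type cells it had 1170, 1218 and 1209 with LGG, against 5684, 5716 and 5676 with IgG. Its coefficient of variation within these groups was 0.368% to 2.12%, and none overlapped with its IgG group. LGG lowered C3ar1 1.78-fold in knockout cells (-0.83 ± 0.06; limma, adjusted p = 1.31e-09) and 4.75-fold in wild-type cells (-2.25 ± 0.06; 5.58e-17). The difference between them was 1.41 ± 0.08 (limma, adjusted p = 7.10e-11). With the 3 libraries that stand apart left out, the knockout change was -0.84 and the difference 1.41. With the combination it had 5415, 4978 and 4837 in knockout cells and 1461, 1463 and 1468 in wild-type cells. The changes against IgG were -0.82 ± 0.06 (limma, adjusted p = 1.59e-09) and -1.96 ± 0.06 (4.82e-16), which differed by 1.14 ± 0.08 (1.63e-09). Knockout over wild type was 0.66 ± 0.06 under IgG, 0.47 ± 0.06 under anti-PD-1, 2.07 ± 0.06 under LGG and 1.79 ± 0.06 under the combination (limma, adjusted p at most 3.56e-06), and 0.45 under anti-PD-1 and 2.06 under LGG without the 3 libraries that stand apart.

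The C5a receptor gene, C5ar1, also fell with LGG in both genotypes, and the order of the genotypes turned round. It had 377, 394 and 382 in knockout LGG libraries, against 1137, 1076 and 1185 in knockout IgG libraries. In wild-type cells it had 227, 284 and 234 with LGG, against 1730, 1609 and 1610 with IgG. No LGG library reached an IgG library of its genotype. LGG lowered C5ar1 2.95-fold in knockout cells (-1.56 ± 0.11; limma, adjusted p = 2.51e-09) and 6.64-fold in wild-type cells (-2.73 ± 0.11; 8.31e-14), a difference of 1.18 ± 0.16 (9.05e-06). The knockout change was -1.57 and the difference 1.16 without the 3 libraries that stand apart. With the combination it had 375, 386 and 323 in knockout cells and 224, 221 and 222 in wild-type cells. The changes against IgG were -1.65 ± 0.11 and -2.89 ± 0.11 (limma, adjusted p at most 1.25e-09), which differed by 1.24 ± 0.16 (4.91e-06). Knockout cells had less C5ar1 than wild-type cells under IgG (-0.54 ± 0.11; limma, adjusted p = 0.000756) and more under LGG (0.63 ± 0.11; 8.23e-05; 0.62 without the 3 libraries that stand apart) and the combination (0.70 ± 0.11; 2.68e-05).

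**Figure D4:**
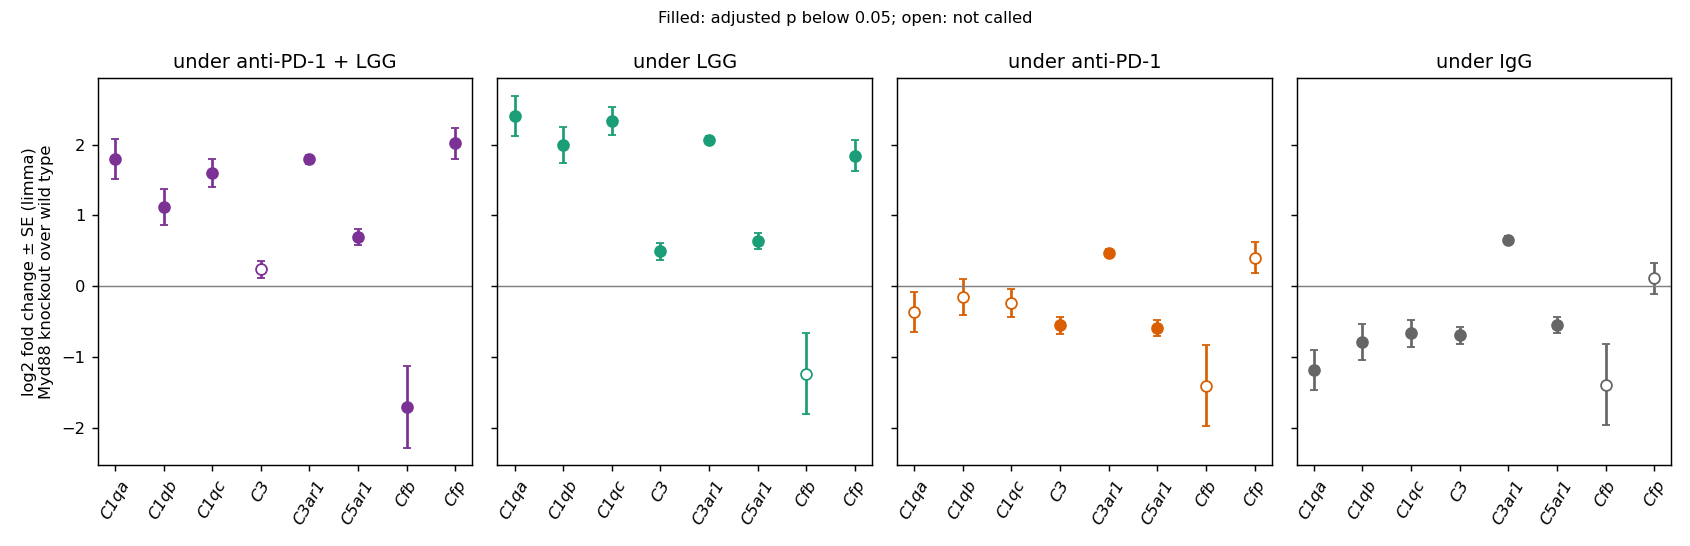
Log2 fold change of knockout over wild type with its standard error for each gene, 1 panel per treatment; filled points passed at an adjusted p below 0.05. The C1q chains and C5ar1 lie below 0 under IgG and above 0 under LGG and the combination, while C3ar1 lies above 0 in all 4 panels and Cfb below 0 in all 4.

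Ranked by group mean, C1qa ran wild-type IgG, wild-type anti-PD-1, knockout anti-PD-1, knockout IgG, knockout LGG, knockout combination, wild-type LGG and wild-type combination, and C1qb and C1qc had the same order except that the last 2 groups changed places. Wild-type IgG was separate from wild-type anti-PD-1 for each chain, and the groups from wild-type anti-PD-1 to knockout LGG each overlapped with the next. C3 ran from wild-type anti-PD-1 (28575) and wild-type IgG (26001) to wild-type LGG (16972) and knockout IgG (16088), and the last pair overlapped. C3ar1 was highest in knockout IgG (8972) and knockout anti-PD-1 (8509), which overlapped, and lowest in wild-type LGG (1199). C5ar1 was highest in wild-type IgG (1649) and wild-type anti-PD-1 (1552), which overlapped, and lowest in the wild-type combination (222). Cfb was highest in the wild-type combination (119) and wild-type LGG (85.2), which overlapped, and lowest in knockout anti-PD-1 (3.40). Cfp had 6 groups between 15183 and 23068, each overlapping with the next, and wild-type LGG (4320) and the wild-type combination (3740) below them.

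Anti-PD-1 alone moved none of the 8 genes past the test in either genotype. In wild-type cells 0 of 8 passed (limma; 0.0314% of all genes), 0 had an unadjusted p below 0.05, and edgeR and DESeq2 called 0. C1qa had 9554, 8465 and 9031 in wild-type anti-PD-1 libraries, all below the IgG libraries (-0.36 ± 0.28; limma, adjusted p = 0.869). For 6 of the 8 genes the wild-type libraries of these groups did not overlap, beside 33.1% of all genes. With only these libraries in the fit, the 3 C1q chains passed as lower (limma, adjusted p = 0.00618, 0.0138 and 0.0206). In knockout cells 0 of 8 passed (limma; 1.8% of all genes), 1 had an unadjusted p below 0.05, and edgeR and DESeq2 called 0. The knockout anti-PD-1 libraries were widely spread: C1qa had 6903, 3899 and 12610, C1qb 21215, 11103 and 30963, C1qc 16075, 9510 and 20963, and Cfp 21732, 13456 and 34016. Replicate 2 was the lowest and replicate 3 the highest for each, with every knockout IgG value in between. C5ar1 had 1267, 1014 and 850.3, C3 had 16093, 24024 and 19128, and Cfb had 1.06, 9.13 and 0. Leaving out replicate 2 raised the number that passed to 5. Without the libraries that stand apart only replicate 1 is left, assumed to vary like the other groups, and 3 passed. Between genotypes, anti-PD-1 libraries differed in 3 of the 8 genes (C3 -0.55, C3ar1 0.47, C5ar1 -0.59; limma, adjusted p at most 0.00179), beside 45.7% of all genes. Without the 3 libraries that stand apart these were -0.83, 0.45 and -0.29, and all passed. Without replicate 2, without replicate 3 or without the 3 libraries that stand apart, 5, 5 and 6 passed, and none with only these libraries in the fit. The difference between genotypes in the anti-PD-1 effect passed for 0 of 8 (limma; 1.9% of all genes), 1 had an unadjusted p below 0.05, and edgeR and DESeq2 called 0; 4 passed without replicate 2, and 3 without the 3 libraries.

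Set against anti-PD-1 alone, the combination changed 8 of the 8 genes in wild-type cells, 7 lower and 1 higher, beside 56.8% of all genes, from -3.44 ± 0.28 for C1qa to 4.03 ± 0.57 for Cfb. In knockout cells 6 of the 8 passed, 5 lower and 1 higher, beside 36.7% of all genes. The knockout values were -1.28 ± 0.28 for C1qa, -1.68 ± 0.25 for C1qb, -1.18 ± 0.20 for C1qc, -0.74 ± 0.06 for C3ar1, -1.51 ± 0.11 for C5ar1 and 3.73 ± 0.57 for Cfb (limma, adjusted p at most 0.00143). They were -1.27, -1.81, -1.31, -0.72, -1.81 and 4.14 without the 3 libraries that stand apart, which leaves only 1 knockout anti-PD-1 library as the reference. With only the libraries compared in the fit, the calls for C1qa and C1qc were lost (limma, adjusted p = 0.11 and 0.0547). C3 (0.24 ± 0.12, limma, adjusted p = 0.122) and Cfp (-0.50 ± 0.22, limma, adjusted p = 0.0786) did not pass. Against that 1 anti-PD-1 library alone, C3 was at 0.52 and Cfp at -0.52. Against LGG alone in wild-type cells 0 of 8 passed (limma; 0.0628% of all genes), 1 had an unadjusted p below 0.05, and edgeR and DESeq2 each called 1. That gene was C3ar1, at 1461, 1463 and 1468 with the combination, against 1170, 1218 and 1209 with LGG, with no overlap and a log2 fold change of 0.29 ± 0.06 (limma, adjusted p = 0.0722; edgeR, adjusted p = 0.0460).

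Macrophage markers moved with several of these genes. Of 14 markers listed for this work, 12 were in the table, and Vsig4 and Timd4 were not used here. Their summed normalised counts were 80553 to 90763 in wild-type LGG libraries and 87591 to 98964 in wild-type combination libraries, against 270574 to 290498 in wild-type IgG libraries. In knockout cells they were 298411 to 421500 with LGG and 330517 to 339686 with the combination, against 400743 to 448452 with IgG. Lyz2 and Apoe together held most of these sums. In wild-type cells Lyz2 averaged 34185 with LGG, against 174710 with IgG, and Apoe 34209, against 53729. In knockout cells Lyz2 averaged 235986 with LGG, against 317607 with IgG, and Apoe 59793, against 50447. With LGG, 9 of the 12 fell and 1 rose in wild-type cells, beside 55.5% of all genes that passed, and 5 fell and 1 rose in knockout cells, beside 32.2%. Csf1r averaged 3620 in wild-type LGG libraries, against 18711 in wild-type IgG libraries. In knockout cells Csf1r averaged 20200 with LGG, against 15942 with IgG. Mrc1 averaged 41.7 with LGG, against 8512 with IgG, in wild-type cells, and Cd163 was at 0.743, against 23.6. Other macrophage markers did not fall like these. In wild-type cells Adgre1 averaged 4366 with LGG, against 4237 with IgG, and Cd68 9077, against 10626. Marco averaged 283 with LGG, against 46.3 with IgG. The C1q sum divided by the macrophage sum was 0.0594 to 0.0612 in wild-type LGG libraries, against 0.198 to 0.221 in wild-type IgG libraries. The C1q sum thus fell further than the macrophage sum did, though not further than every marker in it. In knockout cells this ratio was 0.0440 to 0.0481 with the combination and 0.0637 to 0.0801 with LGG, against 0.0680 to 0.0844 with IgG, so the LGG and IgG groups overlapped. Divided by Csf1r alone, the C1q sum was 0.721 to 0.808 in knockout combination libraries and 0.920 to 1.75 in knockout LGG libraries, against 1.94 to 2.18 in knockout IgG libraries. By that divisor it was 1.33 to 1.51 in wild-type LGG libraries, against 2.96 to 3.28 in wild-type IgG libraries. Markers of other cells moved too. Of the 5 of 6 listed markers of cDC2, a subset of conventional dendritic cells, that were in the table, 4 fell and 1 rose with LGG in wild-type cells, with a median log2 fold change of -2.41. Their sum was 25980 to 27988 in wild-type LGG libraries, against 75186 to 78254 in wild-type IgG libraries. In knockout cells it was 75629 to 84789 with LGG, against 103916 to 106640 with IgG. Of 6 markers of cDC1, another such subset, 3 rose and 2 fell with LGG in wild-type cells. Their sum was 42529 to 44545 in wild-type LGG libraries, against 9509 to 10465 in wild-type IgG libraries. Most of the sum with LGG was Irf8, which averaged 34901, against 5261 with IgG. Batf3 averaged 8498 with LGG, against 4310 with IgG, and Xcr1 188, against 14.5. The other way, Clec9a averaged 23.7 with LGG, against 213 with IgG, and Tlr3 77.2, against 103. Of the 9 dendritic cell markers, 3 rose and 1 fell in that comparison. Under IgG, all 7 T cell markers, all 5 B cell markers and the 4 of 5 natural killer markers in the table were lower in knockout than in wild-type cells, with medians of -3.35, -2.46 and -3.34, beside 39% of all genes that passed. The T cell markers summed to 961 to 1088 in knockout IgG libraries, against 11934 to 12710 in wild-type IgG libraries. The B cell markers summed to 33.9 to 38.9 in knockout IgG libraries, against 254 to 271 in wild-type IgG libraries. With LGG all 16 of these lymphocyte markers rose in knockout cells. The part of these markers in the results for the 8 genes was not tested. In bulk libraries, fewer cells of a type and less RNA per cell cannot be told apart.

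Of 50 other complement genes listed for this work, 21 were in the table: 6 of the classical and lectin pathways, 2 of the terminal pathway, 2 fluid-phase regulators, 5 membrane regulators and 6 receptors. In wild-type cells LGG changed 17 of them, 4 higher and 13 lower, beside 55.5% of all genes, with a median log2 fold change of -1.06. The combination changed 15, 3 higher and 12 lower, beside 55% of all genes. In knockout cells LGG changed 8, 4 in each direction (median -0.16; 32.2% of all genes), and the combination 7, 3 higher and 4 lower (median -0.19; 33.5%), shares near those of all genes. LGG changed 11 without the 3 libraries that stand apart, 6 higher and 5 lower. The difference between genotypes passed for 11 in the LGG effect, 8 of them positive (34.9% of all genes), and for 13 in the effect of the combination, 9 of them positive (33.8%). Under IgG 13 differed between genotypes, 8 higher in knockout cells, beside 39% of all genes. All 6 receptors fell with LGG and with the combination in wild-type cells. C5ar2, another receptor for C5a, averaged 16.8 ± 3.88 in knockout LGG libraries, against 93.9 ± 10.2 in knockout IgG libraries (SD, n = 3 each). In wild-type cells C5ar2 averaged 9.73 ± 6.56 with LGG, against 136 ± 18.1 with IgG. It fell by 2.44 ± 0.33 in knockout cells (limma, adjusted p = 9.36e-06) and by 3.88 ± 0.33 in wild-type cells (4.96e-09). Itgam, Itgax and Itgb2 encode the subunits of the integrin receptors for cleaved C3. With LGG they fell by 2.41 ± 0.16, 1.23 ± 0.07 and 1.16 ± 0.17 in wild-type cells, whereas in knockout cells Itgax rose by 0.29 ± 0.07 (limma, adjusted p = 0.00214) and Itgam (-0.40 ± 0.16) and Itgb2 (0.21 ± 0.17) did not pass. Itgam at -0.48 and Itgb2 at 0.32 passed in knockout cells without the 3 libraries that stand apart (limma, adjusted p = 0.00025 and 4.53e-06). Itgax encodes the antigen used to purify the cells. Cd93, a cell surface protein once described as a C1q receptor, fell by 0.85 ± 0.14 in knockout cells, and in wild-type cells fell by 3.03 ± 0.14.

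Among the soluble genes, C1s1, a protease of the C1 complex, rose with LGG in both genotypes. It had 26.1, 34.4 and 27.1 in knockout LGG libraries, against 6.52, 5.84 and 7.20 in knockout IgG libraries. In wild-type cells C1s1 had 327, 301 and 383 with LGG, against 20.7, 28.9 and 18.1 with IgG. The groups did not overlap, and the rise was 2.00 ± 0.24 in knockout cells (limma, adjusted p = 1.75e-06) and 3.86 ± 0.24 in wild-type cells (3.20e-11). The difference of -1.86 ± 0.33 between them passed (limma, adjusted p = 0.000194). Clu, an inhibitor of the terminal pathway, rose by 0.74 ± 0.21 in knockout cells (limma, adjusted p = 0.0104) and by 1.99 ± 0.21 in wild-type cells (1.19e-07). Colec12, a scavenger receptor with a collectin domain, fell by 2.72 ± 0.19 in wild-type cells (limma, adjusted p = 2.94e-10) and was -0.36 ± 0.19 in knockout cells (0.168). Among the membrane regulators, Cr1l fell by 0.39 ± 0.06 in knockout cells and rose by 0.21 ± 0.06 in wild-type cells, while Susd4 fell by 2.79 ± 0.38 in wild-type cells and was 0.09 ± 0.38 in knockout cells (-0.099 without the 3 libraries that stand apart). C1qbp, a mostly mitochondrial protein that binds C1q, fell by 0.57 ± 0.14 in knockout cells and by 1.06 ± 0.14 in wild-type cells.

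**Figure D5:**
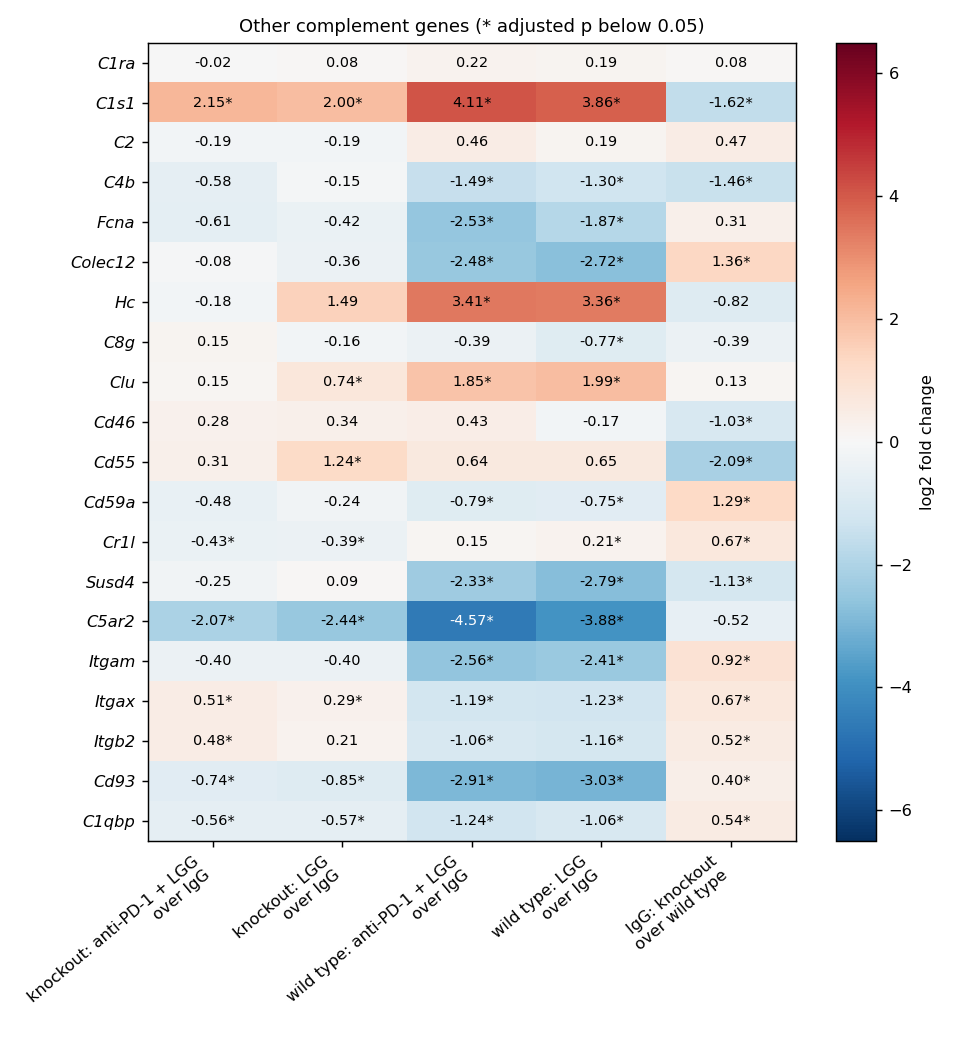
Log2 fold change of other complement genes in the table for the combination and LGG against IgG in each genotype and for knockout against wild type under IgG; asterisks mark an adjusted p below 0.05. C1s1 is higher in the 4 LGG columns, and C5ar2 is lower in them, at -2.44 and -3.88 for LGG in knockout and wild-type cells.

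The C1q chains resembled each other more than any other gene of the 8. As the root mean square distance of centred log2 values over the 24 libraries, C1qa and C1qb were 0.24 apart, C1qa and C1qc 0.20, and C1qb and C1qc 0.19. C3ar1 and Cfp were 0.32 apart, whereas C3 was 0.91 or more from each of the others and Cfb 1.94 or more. Over 12409 candidate genes, those nearest to the mean of the C1q chains were Matk at 0.28, P2ry6 at 0.29 and Cebpe at 0.31. C3ar1 was nearest to Alg8 at 0.15, Ttc27 at 0.16 and Smpdl3a at 0.16, and Cfp to Rrp15 at 0.16, Tfeb at 0.17 and Klk1b11 at 0.17. Near C5ar1 lay Ccnb2 at 0.31 and Rnase6 at 0.32. C3 was nearest to Wdr81, Tmem94 and Atg2b, each at 0.16, beside a standard deviation of C3 itself of only 0.30. For Cfb the nearest were Gem at 0.63, Cmpk2 at 0.65 and Slfn5 at 0.68, beside a standard deviation of Cfb itself of 1.91. These distances are descriptions of 24 libraries in 8 groups, which share large treatment differences.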

How the data were processed

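The authors deposited normalised signal per gene: every value equals a number of reads over 1 factor of its library. The submitters' processing notes name STAR 2.4.0, HTSeq 0.6.1, DESeq2 without a version, and genome build mm10. Whether counting used strand is not given in the sources used here. Values in a library were whole multiples of 1 step, so whole reads could be recovered for 100% of values within 0.001. Library totals cover listed genes only.

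The main test was run in limma 3.58.1 (R 4.3.3) on log2 of the deposited value plus 1. It took in 12749 genes whose mean reached 10, among them all 8 complement genes, and fitted a mean for each group to the 24 libraries at once (eBayes with trend and robust options). Its two-sided p was adjusted (Benjamini-Hochberg) over all genes in each of 17 comparisons, 14 between groups and 3 interactions, and called below 0.05. Errors are SE after fold changes and SD after means. Folds without a log2 scale are ratios of group means. Genes, lists and comparisons were chosen with earlier results of these data known. Of the other complement genes, the text names up to 12 by smallest p, and for each likeness the nearest 3. Of these, 2 genes are not reported here, although counts over the lists include them. Alternatives were a pseudocount of 8, no filter, TMM scaling, only the libraries compared, a replicate block, DESeq2 1.42.0 or edgeR 4.0.16 on the recovered reads, 3 libraries that stand apart left out, and each of the 24 libraries left out. The main fit was also run on simulated counts, with the same spread setting for every gene and changes in wild-type LGG libraries only. No simulated library was made to stand apart, so that run cannot speak for groups as spread as knockout anti-PD-1. Its outcome is not given here. Gene positions and exonic lengths come from an mm10 annotation, which matched 12759 identifiers.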

Additional observations from a re-analysis of the deposited data

Results flagged for a closer look

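The effect of LGG, and of the combination, differed between the genotypes by a test of that difference (limma, log2 scale, knockout minus wild type, adjusted p below 0.05 over 12749 genes) for 7 of the 8 genes each. For LGG against IgG the difference was 3.59 for C1qa, 2.78 for C1qb, 3.01 for C1qc, 1.18 for C3, 1.41 for C3ar1, 1.18 for C5ar1 and 1.73 for Cfp. For the combination against IgG it was 2.97 for C1qa, 1.91 for C1qb, 2.27 for C1qc, 0.93 for C3, 1.14 for C3ar1, 1.24 for C5ar1 and 1.91 for Cfp. Both sets share the IgG libraries. No group has 4 or more libraries, so single libraries were not screened as outliers by a rule. For the 3 libraries that stand apart, no such rule is given here.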

How the results depend on the processing

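Of 136 fold changes (8 genes in 17 comparisons), 78 passed the test as reported. Those 78 kept their direction in every alternative run. Their side of the threshold changed in 5 of 624 refits under the 8 settings other than leaving out 1 library, all with only the libraries compared in the fit. It changed in 6 of 1872 refits with 1 library left out (C1qa for the combination against IgG in knockout cells, and C1qb between genotypes under IgG). Same-numbered libraries of compared groups did not pair: in 0 of 14 comparisons did every correlation of their deviations pass 0.1 (range -0.43 to 0.56). With a replicate block all counts of the 8 genes that passed were as reported, for example 8 for LGG against IgG in wild-type cells.

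Counts of the 8 genes that passed moved by over 1.5 times as follows. The share of all genes that passed in the same run is not given beside them, so they are not read as particular to the 8 genes. Without the 3 libraries that stand apart, only replicate 1 of knockout anti-PD-1 is left. Without the 3 libraries that stand apart, 8 passed for LGG against IgG in knockout cells, 3 for anti-PD-1 against IgG in knockout cells, 4 for the same in wild-type cells, 3 for the combination against LGG in knockout cells, 2 for the same in wild-type cells, 6 between genotypes under anti-PD-1, and 3 for the genotype difference in the anti-PD-1 effect. With only the libraries compared, 3 passed for anti-PD-1 against IgG in wild-type cells, 0 between genotypes under anti-PD-1, and 1 for the combination against LGG in wild-type cells. TMM, edgeR and DESeq2 also gave 1 for the last. With 1 library left out, counts ranged from 0 to 4 for the genotype difference in the anti-PD-1 effect, 3 to 5 between genotypes under anti-PD-1, 0 to 5 for anti-PD-1 in knockout cells, and 0 to 1 for the combination against LGG in wild-type cells. Smaller moves were 7 in place of 6 between genotypes under IgG and 8 in place of 7 under LGG, with edgeR, DESeq2, a pseudocount of 8 or without the 3 libraries, and under IgG also with only the libraries compared. With only those libraries or without the 3, 8 passed in place of 7 between genotypes under the combination and for the combination against IgG in knockout cells. For the combination against anti-PD-1 in knockout cells, 7 passed with edgeR and DESeq2, 8 without the 3 libraries and 4 with only the libraries compared, in place of 6, and TMM gave 4 in place of 3 between genotypes under anti-PD-1. The causes were not tested.

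The sign turned for values near 0 that did not pass as reported. For the combination against LGG in knockout cells, Cfb was 0.01 as reported and -0.14 (DESeq2), -0.14 (edgeR), -0.016 (pseudocount of 8) and -0.49 (without the 3 libraries), and from -0.49 to 0.34 with 1 library left out. Cfp was 0.19 without the 3 libraries and from -0.18 to 0.19 with 1 left out, C3 from -0.19 to 0.073, and C3ar1 from -0.037 to 0.044. In wild-type cells C1qa was 0.0011 with TMM and from -0.11 to 0.036 with 1 left out. For the genotype difference in the anti-PD-1 effect, Cfb was 0.68 (DESeq2), 0.65 (edgeR), 0.36 (pseudocount of 8) and from -0.95 to 0.72 with 1 left out. C3 was -0.13 without the 3 libraries and from -0.0099 to 0.28 with 1 left out, C5ar1 0.25 and from -0.20 to 0.090, and Cfp from -0.040 to 0.63 with 1 left out. For that in the LGG effect, Cfb was -0.29 with a pseudocount of 8 and from -0.17 to 0.66 with 1 left out. For anti-PD-1 in knockout cells, C5ar1 was 0.16 without the 3 libraries and from -0.29 to 0.0017 with 1 left out, C1qc from -0.052 to 0.52 and Cfp from -0.047 to 0.62. For anti-PD-1 in wild-type cells, Cfp ranged from -0.053 to 0.035. Between genotypes under anti-PD-1, C1qa ranged from -0.80 to 0.051, C1qb from -0.49 to 0.25 and C1qc from -0.49 to 0.076. The counts behind Cfb, from 0 to 9 reads in knockout anti-PD-1 libraries, limit its precision.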
